A study of Mus musculus with 22 samples.

Results

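The genes described here are 37 genes of the leptomeningeal fibroblast other than collagens, chosen by name, out of 21154 mouse genes with a named probe on the array. All 37 had a probe, 43 probes in all, and for the 6 genes with 2 probes the brighter one stood for the gene. They were measured in the right hippocampus of TgproNGF#3 mice and of wild type (WT) mice on the same C57Bl/6xDBA/2 background. TgproNGF#3 is a single transgenic line that expresses a furin-resistant proNGF, together with EGFP behind an internal ribosome entry site, from the neuronal Thy1.2 promoter. WT mice carry none of this. Mice were studied at 1 month (4 TgproNGF#3 and 4 WT), 3 months (4 and 4) and 12 months (3 and 3), 1 array per mouse. Mice of 1 and 3 months were males and mice of 12 months were females, and each age was hybridised on its own slide, so between ages the effects of age, of sex and of the slide cannot be told apart, whereas TgproNGF#3 and WT of 1 age share all of them.

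The leptomeninges are the pia and arachnoid membranes that wrap the brain and follow its fissures, including the hippocampal fissure, and their fibroblasts lay down matrix, carry solutes between cerebrospinal fluid and tissue, and release retinoic acid, insulin-like growth factor 2 and bone morphogenetic proteins. These cells arise from mesenchyme and neural crest under forkhead and zinc finger factors such as Foxc1, Foxd1 and Zic1. The members are given below by role: transporters and channels, retinoid enzymes, transcription factors, secreted factors, matrix proteins and surface proteins. Several of them, among them Igf2, Igfbp2, Ptgds and Slc13a4, are also known from choroid plexus epithelium or other cells, so that a member is a marker of the fibroblast only in company with the others. In a bulk sample, fewer cells of a type and less RNA per cell cannot be told apart.

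Levels are log2 processed signals minus the 75th percentile of the array's own retained spots, so a level of 0 is the brightness of that percentile and a change of 1 is a doubling. Of the 37 members, 31 were well above background on all 22 arrays. A log2 fold change (log2 FC) is the TgproNGF#3 mean minus the WT mean. A gene is called here when the unadjusted limma p is below 0.05 and the log2 FC is beyond 1 in either direction, which is the threshold of the study's methods, and the Benjamini-Hochberg adjusted p over all probes of the age is given beside it. The share of spots well above background ran from 57.6% to 80.3% per array. All 12 hippocampal neuron markers checked were well above background on all 22 arrays.

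The 4 promoters shown first belong to the members with the smallest p for a change of the genotype difference between 3 and 12 months that have a single start in the reference table. They are a connexin, a matrix protein, a retinoic acid synthase and a carboxylate transporter, and each run is the 250 bases before the RefSeq start on GRCm38.p6, read 5′ to 3′ along the gene (chr14:57104703-57104952, minus strand for Gjb2, chr9:58158555-58158804, minus strand for Islr, chr9:71215539-71215788, plus strand for Aldh1a2 and chr2:165473198-165473447, minus strand for Slc13a3). Capitals mark any of 6 motifs found on either strand, namely TGTTTAC (forkhead core), AGGTCA (retinoic acid receptor core), GGGTGGTC (ZIC and GLI core), GGGCGG (GC box), CCAAT and TATAAA. None of these words overlaps another in the 4 runs.
Gjb2: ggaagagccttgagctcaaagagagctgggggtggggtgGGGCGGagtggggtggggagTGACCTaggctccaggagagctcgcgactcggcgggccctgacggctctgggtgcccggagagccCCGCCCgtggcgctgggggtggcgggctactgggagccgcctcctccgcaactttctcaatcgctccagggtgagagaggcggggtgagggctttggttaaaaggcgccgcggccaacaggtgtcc
Islr: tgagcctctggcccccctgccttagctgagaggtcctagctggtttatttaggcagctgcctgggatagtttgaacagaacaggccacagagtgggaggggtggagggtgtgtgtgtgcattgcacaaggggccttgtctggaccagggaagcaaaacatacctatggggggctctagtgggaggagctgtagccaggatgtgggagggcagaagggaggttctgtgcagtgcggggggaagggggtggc
Aldh1a2: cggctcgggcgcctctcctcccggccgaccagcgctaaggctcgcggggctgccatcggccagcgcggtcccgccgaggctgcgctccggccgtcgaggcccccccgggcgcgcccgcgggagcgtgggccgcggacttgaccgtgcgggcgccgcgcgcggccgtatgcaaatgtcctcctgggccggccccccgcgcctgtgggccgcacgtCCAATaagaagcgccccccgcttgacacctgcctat
Slc13a3: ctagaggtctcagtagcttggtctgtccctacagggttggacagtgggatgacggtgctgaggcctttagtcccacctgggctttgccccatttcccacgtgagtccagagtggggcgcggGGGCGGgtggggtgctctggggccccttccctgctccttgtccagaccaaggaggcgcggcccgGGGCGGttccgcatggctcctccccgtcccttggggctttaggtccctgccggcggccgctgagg
Gjb2 holds a receptor core 191 bases and GC boxes 211 and 126 bases before its start, Slc13a3 holds GC boxes at 129 and 65 bases, Aldh1a2 holds a CCAAT box at 36 bases, and Islr holds none of the 6. Windows were present for 24 of the 37 members, 30 windows in all. The forkhead core stood in 0 of the 30 member windows and in 3.17% of all 32851 windows, the receptor core in 16.7% against 14%, the ZIC and GLI core in 0 against 0.703%, the GC box in 36.7% against 32.7%, the CCAAT box in 40% against 33.8% and the TATA box in 3.33% against 12.4%. These are counts of letters and no binding was measured.

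The members were mostly lower in TgproNGF#3 at 1 and 12 months and higher at 3 months. At 1 month 9 of the 37 tested were higher in TgproNGF#3 (67.2% of all genes tested were higher), at 3 months 36 of 36 were higher (43.9% of all genes) and at 12 months 2 of 34 were higher (59.9% of all genes). Among the 34 members tested at all 3 ages, 23 were lower at 1 month, higher at 3 months and lower at 12 months by some amount, an order that 3.17% of all genes tested at the 3 ages had. The median log2 FC of the members was -0.32, 0.42 and -0.84 at the 3 ages, against 0.07, -0.05 and 0.06 over all genes tested. Most single differences at 1 and 3 months were smaller than the threshold, as the plot of fold changes shows.

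**Figure D1:**
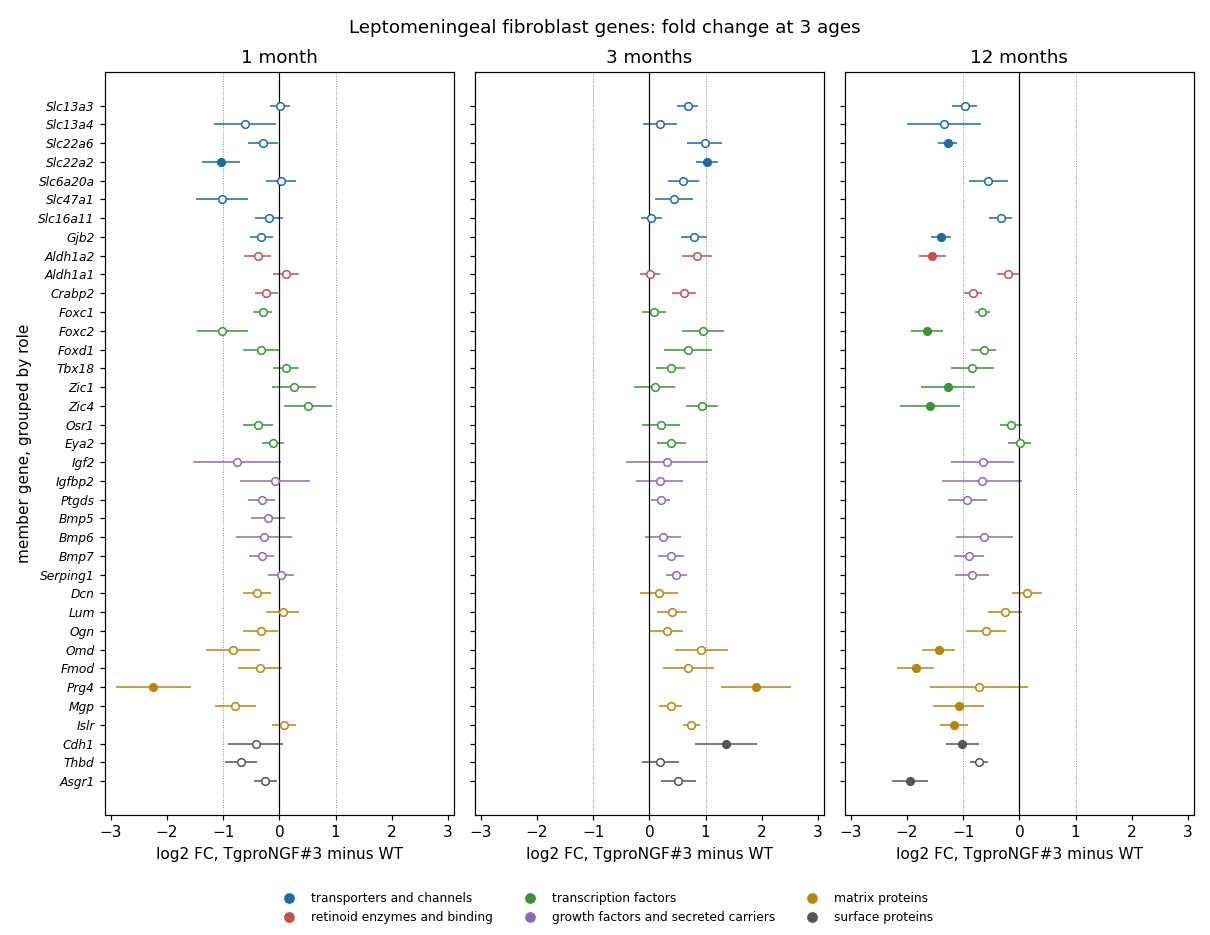
Log2 FC (TgproNGF#3 minus WT, horizontal axis) of each member gene (vertical axis, coloured by role) at 1, 3 and 12 months; bars are standard errors, filled points are called genes and dotted lines mark a log2 FC of 1 in either direction. The points lie mostly left of 0 at 1 month, right of 0 at 3 months and left of 0 again at 12 months, with 2, 3 and 12 filled points, and members not tested at an age have no point.

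At 12 months the members were lower in TgproNGF#3. Of the 34 tested, 12 were called lower (35.3%, against 0.854% of all genes tested) and 0 were called higher (0.331% of all genes). In 17 of the 34 every TgproNGF#3 value lay below every WT value, which held for 5.73% of all genes. Omd and Cdh1, among the 17, had a value on 2 of the 3 TgproNGF#3 arrays. No member passed an adjusted p of 0.05 at this age in limma, and 0 genes on the array did, while 1271 of the 15697 genes tested had an unadjusted p below 0.05. The smallest adjusted p of a member was 0.35 by limma with Benjamini-Hochberg adjustment, and 20 members had an unadjusted p below 0.05. With 3 against 3 the exact permutation test cannot give a p below 0.1.

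Among the transporters and channels, Gjb2 (connexin 26, a gap junction protein of meningeal fibroblasts) stood at -2.18, -2.53 and -2.42 on the TgproNGF#3 arrays and at -0.93, -0.76 and -1.27 on the WT arrays. Slc22a6, the organic anion transporter OAT1, stood at -2.55, -2.97 and -3.08 against -1.57, -1.69 and -1.51. For both genes the groups were well apart. The log2 FC was -1.39 (SE 0.18, adjusted p 0.35 by limma) for Gjb2, a 2.62-fold lower level, and -1.27 (SE 0.17, adjusted p 0.35) for Slc22a6. Slc13a3, a sodium-coupled dicarboxylate transporter, also did not overlap, with a log2 FC of -0.98, just short of the threshold. Slc13a4, the sulfate transporter, had a similar size of -1.34 but an SE of 0.66, and its groups overlapped. Slc6a20a (imino acids) and Slc16a11 (monocarboxylate family) had values of -0.55 and -0.34. Slc22a2, the organic cation transporter OCT2, was well above background on 3 of 3 WT arrays and on 1 of 3 TgproNGF#3 arrays, and Slc47a1, the MATE1 extruder, on 2 and 0. Neither was tested at this age. With spots below that limit kept, both were called, Slc22a2 with a log2 FC of -2.83 (adjusted p 0.43 by limma) and Slc47a1 with -1.15 (adjusted p 0.43), values that rest on dim spots.

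Of the retinoid genes, Aldh1a2, the enzyme that makes retinoic acid in the meninges, was at -2.36, -2.93 and -2.60 in TgproNGF#3 and at -1.03, -0.71 and -1.50 in WT. Its log2 FC was -1.55 (SE 0.24, adjusted p 0.51 by limma), a 2.93-fold lower level with no overlap. Crabp2, which carries retinoic acid to its nuclear receptors, did not overlap either and had a log2 FC of -0.83. Aldh1a1, a second retinaldehyde dehydrogenase that other brain cells also make, had a value of -0.20 with overlapping groups. Outside the members, the 13 tested genes of a retinoic acid list had a median log2 FC of 0.02.

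Among the transcription factors, Foxc2 (a forkhead factor of mesenchyme) was at -5.09, -6.28 and -6.01 in TgproNGF#3 and at -4.17, -4.19 and -4.09 in WT. The log2 FC was -1.64 (SE 0.29, adjusted p 0.55 by limma). The neighbouring zinc finger genes Zic1 and Zic4, with no coding gene between them on GRCm38.p6, were both called. Zic1 stood at 0.98, 0.06 and -1.20 against 1.08, 1.25 and 1.35. Zic4 stood at -2.94, -4.61 and -5.14 against -3.12, -2.36 and -2.41. For both, TgproNGF#3 replicate 1 was close to or inside the WT range and replicate 3 was the lowest array. Without replicate 3 their log2 FC was -0.71 and -1.14 and neither was called, against -1.28 and -1.60 with all arrays. In the 6 fits that left out 1 mouse, the call was lost in 4 for Zic1 and in 3 for Zic4. The second Zic4 probe had -1.55 and the second Zic1 probe -0.64. Foxc1 and Foxd1, with -0.66 and -0.64, did not overlap between the groups but were under the size threshold, whereas Osr1 (-0.16) and Eya2 (0.00) had small values and overlapped. Tbx18, a T-box factor shared with mural cells, had -0.84 with an SE of 0.39.

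Of the 6 growth factors and secreted carriers tested 0 were called and 3 had an unadjusted p below 0.05, with a median log2 FC of -0.75. Ptgds, the abundant prostaglandin D synthase of the meninges and cerebrospinal fluid, had a log2 FC of -0.93 (SE 0.34) and Bmp7 one of -0.90 (SE 0.27), both with groups that did not overlap. Serping1, the C1 inhibitor, had -0.84 with overlap. Igf2 (-0.65, SE 0.56), Igfbp2 (-0.66, SE 0.71) and Bmp6 (-0.62, SE 0.50) had values of like size with standard errors nearly as large or larger. Bmp5 was well above background on 1 of 3 WT arrays and on 0 TgproNGF#3 arrays and was not tested.

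Of the 8 matrix proteins 4 were called. Fmod, fibromodulin, was at -3.74, -4.75 and -3.97 in TgproNGF#3 and at -2.24, -1.83 and -2.84 in WT, a log2 FC of -1.85 (SE 0.33, adjusted p 0.55 by limma). Islr, a secreted leucine-rich repeat protein of fibroblasts, was at -1.60, -2.00 and -1.77 against -0.46, -0.24 and -1.17, a log2 FC of -1.17 (SE 0.25). Both were lower without overlap. Omd, osteomodulin, had a value on 2 of the 3 TgproNGF#3 arrays, -5.53 and -6.34, against -4.73, -4.19 and -4.57 in WT, and a log2 FC of -1.44. Mgp, matrix Gla protein, an inhibitor of calcification, overlapped, at -0.04, -1.19 and 0.49 against 0.77, 1.45 and 0.27. Its log2 FC was -1.08 (SE 0.46). The call of Mgp was lost in 4 of the 6 fits that left out 1 mouse, with -0.61 without TgproNGF#3 replicate 2. It was also lost in 7 of 15 other settings, over which the log2 FC ran from -1.16 to -0.52. The other small leucine-rich proteoglycans among the members were not called. Decorin (Dcn) had 0.13, lumican (Lum), its neighbour on the chromosome, -0.25, and osteoglycin (Ogn), the neighbour of Omd, -0.59, all with overlap. Prg4, lubricin, was well above background on 2 TgproNGF#3 arrays, at -4.17 and -6.66, and stood at -5.17, -5.54 and -3.37 in WT, a difference of -0.72 with an SE of 0.88.

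All 3 surface proteins had an unadjusted p below 0.05. Asgr1, a subunit of the asialoglycoprotein receptor, had the largest log2 FC of the 34 members tested, -1.95 (SE 0.32, adjusted p 0.51 by limma), from levels of -4.24, -5.27 and -4.93 against -2.72, -2.47 and -3.39. This value rests on 1 probe. The second, dimmer probe was well above background on 1 TgproNGF#3 array, at -5.09, which lay above its WT values of -5.86, -6.04 and -5.98, and it was not tested. With the mean of both probes the log2 FC of Asgr1 was -0.37 and it was not called. Slc16a11, 3 coding genes away, had -0.34. Cdh1, E-cadherin, was measured on 2 TgproNGF#3 arrays, at -6.76 and -6.58, against -5.98, -5.08 and -5.91, a log2 FC of -1.01. Its call was lost in 6 of 13 other settings, over which the log2 FC ran from -1.64 to -0.58, and without WT replicate 2, at -0.73. Thbd, thrombomodulin, also known from endothelium, did not overlap and had -0.72.

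**Figure D2:**
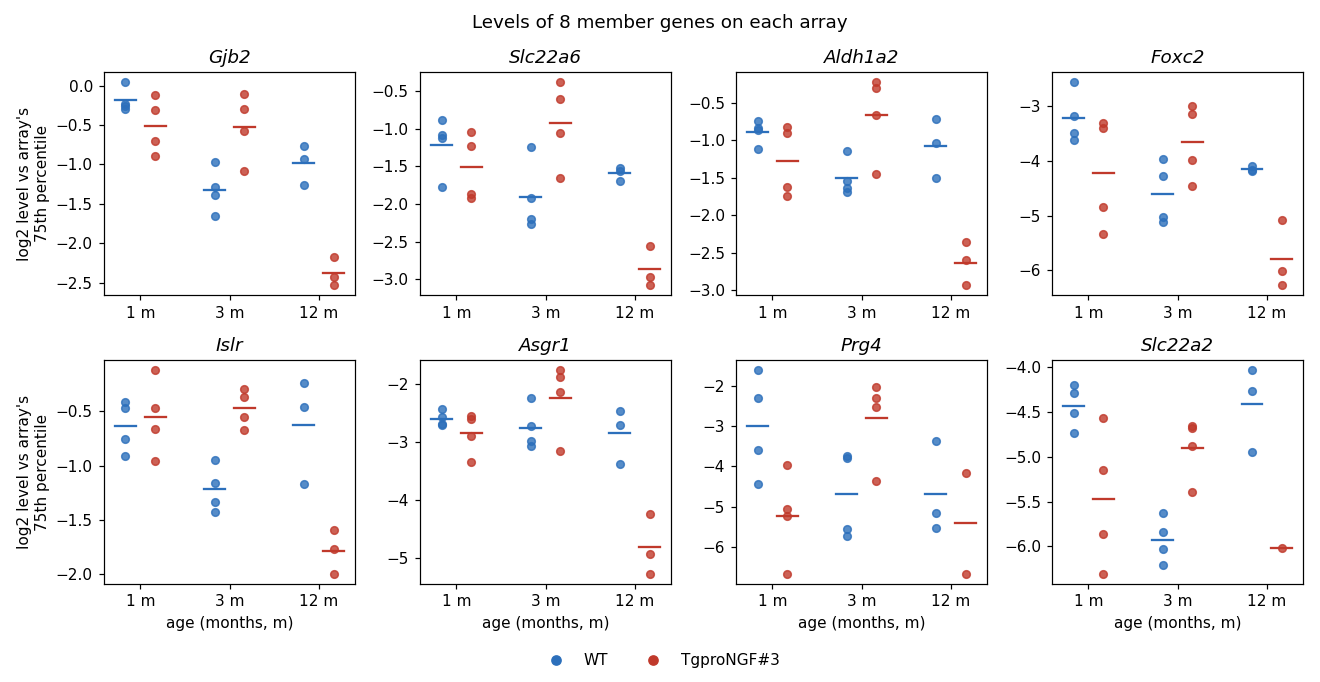
Log2 level relative to the array's 75th percentile (vertical axis) of 8 member genes on each array at 1, 3 and 12 months (m); each point is 1 mouse and the line is the group mean, and an array on which the probe was not well above background has no point. At 12 months the TgproNGF#3 points of Gjb2, Slc22a6, Aldh1a2, Foxc2, Islr and Asgr1 lie below all WT points, and at 3 months those of Islr and Slc22a2 lie above them.

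Taking the 31 members with a value on all 6 arrays of 12 months, the mean level relative to WT (a score, in log2 units, which is 0 for the WT mean) was -0.77, -1.21 and -0.67 on the TgproNGF#3 arrays and -0.12, 0.34 and -0.22 on the WT arrays. It was below WT on each TgproNGF#3 array. Position on the slide moved with the genotype at this age, since all 3 TgproNGF#3 arrays and WT replicate 3 lay in row 2 and WT replicates 1 and 2 in row 1. Row 1 held only WT arrays, so a comparison within row 2 and a fit with the row as a block both set the 3 TgproNGF#3 arrays against WT replicate 3 alone and give 1 and the same estimate, a median of -0.58 over the members. The block fit, in which that lone WT array is assumed to vary like the others, called 0.465% of all genes lower and 8 of the 34 members (Slc13a3, Slc22a6, Gjb2, Aldh1a2, Foxc2, Omd, Fmod and Asgr1). The members' values at 12 months stood beside a like shift of the 12 collagens and other fibroblast markers. All 12 were lower and 7 were called, with a median of -1.11. Their scores were -1.36 to -0.72 in TgproNGF#3 against -0.24 to 0.24 in WT. The 3 with the largest change were Col3a1 (-1.80), Col1a2 (-1.65) and Col6a3 (-1.58). The list was written with earlier results of these data known, so it is no independent check. Col3a1, Col6a2, Lama1 and Slc6a13, all among the 7 called, had been reported by the paper as changed at 12 months in these arrays. The endothelial and mural lists, 12 and 10 genes, had 0 called genes, 1 gene each with an unadjusted p below 0.05, and medians of -0.01 and -0.08. The 6 ependymal genes had 0 called, 3 with an unadjusted p below 0.05 and a median of -0.65.

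The 14 choroid plexus epithelium markers were well above background on all 22 arrays and varied widely between mice. Their score ran from -1.96 to 1.26 on the TgproNGF#3 arrays of 12 months and from -1.79 to 1.83 on the WT arrays, and their summed signal, in multiples of the 75th percentile, from 20.8 to 206 and from 21.7 to 278. All 14 were lower in TgproNGF#3 by some amount, 0 had an unadjusted p below 0.05 in limma, and their median was -0.88. The group of secreted carriers was highest on the same 2 arrays as the choroid plexus list, WT replicate 2 (0.69 and 1.83) and TgproNGF#3 replicate 3 (0.00 and 1.26). The transporters, the matrix proteins and all members together were also highest of the TgproNGF#3 arrays on replicate 3 (-0.69, -0.41 and -0.67) and highest of the WT arrays on replicate 2 (0.30, 0.47 and 0.34). On TgproNGF#3 replicate 3 the retinoid genes, surface proteins and transcription factors were at -0.92, -1.38 and -1.08, which was not the highest of the 3 arrays. Of the WT arrays, replicate 2 was the highest for these groups as well (0.10, 0.11 and 0.15). The part of choroid plexus tissue in the members' values was not tested. Leaving out WT replicate 2 left 9 members called lower, with 0.433% of all genes, against 12 members and 0.854% with all arrays.

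**Figure D3:**
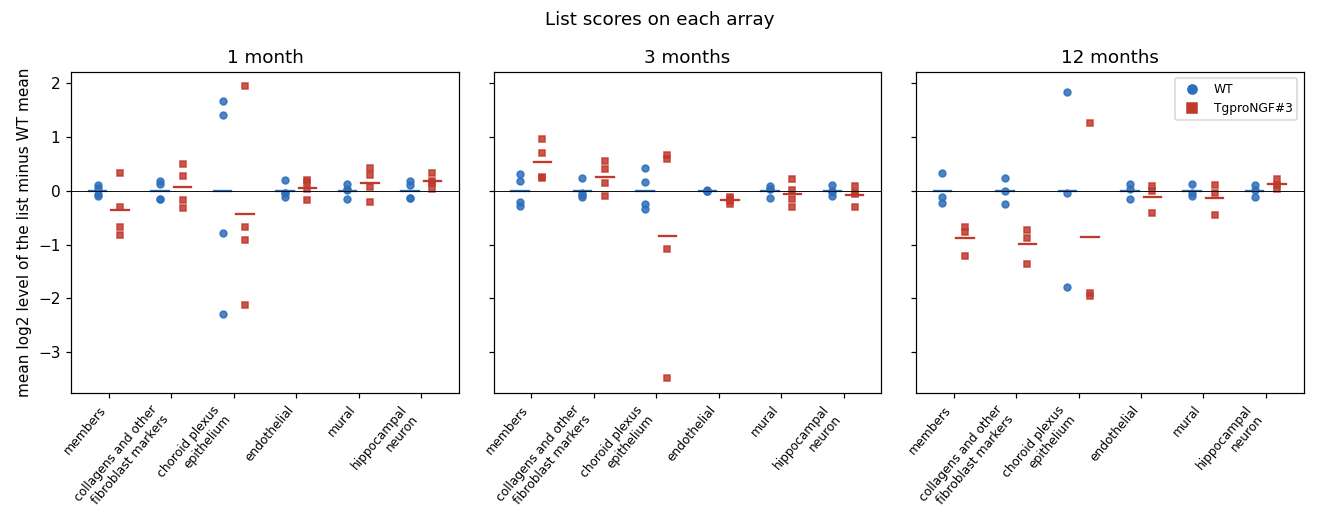
Mean log2 level of a gene list minus its WT mean (vertical axis, a score) on each array at 1, 3 and 12 months for the members and 5 marker lists; each point is 1 mouse, circles for WT and squares for TgproNGF#3, and the line is the group mean. At 12 months the TgproNGF#3 squares of the members (-1.21 to -0.67) and of the collagens and other fibroblast markers (-1.36 to -0.72) lie below all WT circles, while the choroid plexus points spread over several units in both groups.

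At 3 months the members were higher in TgproNGF#3, by less. Of the 36 tested, 3 were called higher (8.33%, against 0.775% of all genes) and 0 lower (3.35% of all genes). Slc22a2 and Islr passed an adjusted p of 0.05, 2 of 36 or 5.56%, against 2.05% of all genes that were higher at that threshold. In 4 of the 36, Slc13a3, Slc22a2, Zic4 and Islr, every TgproNGF#3 array lay above every WT array (11.1%, against 7.59% of all genes), a share not far from that over all genes. Slc22a2 was at -4.65, -4.88, -5.40 and -4.68 in TgproNGF#3 and at -6.21, -5.63, -5.84 and -6.04 in WT. Its log2 FC was 1.03 (SE 0.20, adjusted p 0.017 by limma) and the two-sided exact permutation p was 0.029, the smallest that 4 against 4 arrays allow. With normexp background correction its log2 FC was 0.39 and it was not called, and in 4 of the 8 fits that left out 1 mouse it was not called either. Islr was at -0.37, -0.30, -0.55 and -0.68 against -1.34, -0.95, -1.16 and -1.43, a log2 FC of 0.75 (SE 0.16, adjusted p 0.021). In both genes the 4 TgproNGF#3 arrays lay above the 4 WT arrays.

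Prg4 and Cdh1 were called with wide groups. Prg4 was at -2.30, -2.03, -4.36 and -2.52 in TgproNGF#3 and at -5.55, -3.78, -3.73 and -5.73 in WT, with a log2 FC of 1.90 (SE 0.62, adjusted p 0.087 by limma). Cdh1 was at -3.69, -3.67, -5.86 and -5.01 against -6.81, -5.51, -4.93 and -6.42, with 1.36 (SE 0.56, adjusted p 0.15). Cdh1 was not called in 4 of the 8 fits that left out 1 mouse, nor with normexp (0.58) or the replicate block. In both, TgproNGF#3 replicate 3 lay inside the WT range, and for Cdh1 replicate 4 did so too. Of the retinoid genes Aldh1a2 had 0.84 and Crabp2 0.62, and Aldh1a1 had 0.01. Among the transcription factors Foxc2 had 0.95 and Zic4 0.94, and the secreted carriers ran from 0.19 to 0.48. Slc22a6 (0.99), Gjb2 (0.80) and Slc13a3 (0.69) had unadjusted p values below 0.05 and adjusted p values of 0.082, 0.063 and 0.054.

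The score of the members at 3 months was 0.95, 0.71, 0.24 and 0.26 on the TgproNGF#3 arrays and -0.21, 0.30, 0.19 and -0.28 on the WT arrays, so replicates 1 and 2 were above all WT arrays and replicates 3 and 4 were not. The count of called members depended on single mice. It was 1 without TgproNGF#3 replicate 1, WT replicate 1 or WT replicate 4, 8 without TgproNGF#3 replicate 3, 7 without WT replicate 2 and 5 without TgproNGF#3 replicate 4. Of all genes 0.598%, 0.729% and 0.651% were called higher in the fits that gave 1. The fits that gave 8, 7 and 5 had 0.961%, 0.858% and 1.1%. Scaling to the 75th percentile of all spots gave 7 calls and quantile normalization 6, and normexp gave 1. In these settings 1.27%, 1.03% and 0.26% of all genes were called higher, against 0.775% in the main fit. The 12 collagens and other fibroblast markers had a median of 0.26, with 0 called and 3 with an unadjusted p below 0.05. Over all genes tested at this age, 3917 of 15739 had an unadjusted p below 0.05. In the choroid plexus list all 14 had negative values, with a median of -0.86 and 0 with an unadjusted p below 0.05. Its score was -3.48 on TgproNGF#3 replicate 2, an array on which the members' score was 0.71, and 0.66 on replicate 1, on which it was 0.95. Its summed signal ran from 17.9 to 218 in TgproNGF#3 and from 115 to 177 in WT. Of the 22 BMP pathway genes outside the members 2 were called lower, Bmpr1b, a receptor (-1.36), and Grem1, an antagonist (-1.19).

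At 1 month 28 of the 37 members were lower in TgproNGF#3 by some amount and 2 were called lower (5.41%, against 0.168% of all genes), with 0 called higher (0.18% of all genes). In 0 members were the groups apart (0.8% of all genes were lower without overlap). In limma 0 genes on the array passed an adjusted p of 0.05 and 491 of 17248 had an unadjusted p below 0.05, and 3 members had an unadjusted p below 0.05. Prg4 stood at -6.66, -3.97, -5.05 and -5.23 in TgproNGF#3 and at -1.62, -3.59, -2.30 and -4.44 in WT. Its log2 FC was -2.24 (SE 0.66, unadjusted p 0.0070 by limma), a value that rests on 1 probe. The second, dimmer Prg4 probe was well above background on 1 TgproNGF#3 array, at -6.19, and on 0 WT arrays, and was not tested. Slc22a2 stood at -5.86, -4.57, -6.31 and -5.15 against -4.73, -4.20, -4.29 and -4.51, a log2 FC of -1.04 (SE 0.34, unadjusted p 0.012 by limma). In both genes TgproNGF#3 replicate 2 lay within the WT range. Leaving out 1 mouse lost the call of Slc22a2 in 4 of 8 fits and that of Prg4 in 0. Slc22a2 was also not called in 2 of 12 other settings, with a log2 FC as small as -0.61. Thbd had -0.68 with an unadjusted p of 0.037 by limma.

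TgproNGF#3 replicate 2 also had the highest score of the members at 1 month, which was -0.82, 0.33, -0.67 and -0.29 in TgproNGF#3 and -0.09, 0.11, -0.07 and 0.06 in WT. Without it 7 members were called and the median was -0.54, and without TgproNGF#3 replicate 1 or replicate 3, or without WT replicate 3, 1 was called. Of all genes 0.224% were called lower in the fit with 7, and 0.106%, 0.332% and 0.0999% in those with 1. Replicate 2 had the highest choroid plexus score of the 8 arrays, 1.94, and the next were WT replicate 2 and replicate 4, with 1.66 and 1.41. The same 3 arrays had the 3 highest scores of the secreted carriers, 0.69, 0.72 and 0.41. The summed choroid plexus signal ran from 26.5 to 183 in TgproNGF#3 and from 18.6 to 233 in WT, and all 14 of its genes had negative values with 0 at an unadjusted p below 0.05. At this age TgproNGF#3 arrays occupied columns 3 and 4 of the slide and WT arrays columns 1 and 2, so genotype and column cannot be told apart. With the replicate number as a block, which pairs arrays of the same slide row at this age, 4 members were called lower (Slc22a2, Slc47a1, Foxc2 and Prg4), against 0.406% of all genes in that fit.

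The genotype difference itself changed between ages in a joint limma fit. From 3 to 12 months all 34 members tested had a more negative log2 FC, and in 10 the change passed an adjusted p of 0.05 (29.4%, against 0.955% of all genes with a negative change at that threshold). The median change was -1.32, against 0.12 over all genes. The 10 were Foxc2 (-2.60), Fmod (-2.54), Zic4 (-2.53), Asgr1 (-2.47), Aldh1a2 (-2.40), Slc22a6 (-2.26), Gjb2 (-2.19), Islr (-1.91), Slc13a3 (-1.66) and Crabp2 (-1.44), with Benjamini-Hochberg adjusted p from 0.0026 for Gjb2 to 0.044 for Fmod. They include 3 of the transporters and channels, 2 of the 3 retinoid genes, 2 transcription factors, 2 matrix proteins and 1 surface protein, and 0 of the 6 secreted carriers, of which 3 had an unadjusted p below 0.05. With scaling to the 75th percentile of all spots 14 members passed, against 2.65% of all genes with a negative change at that threshold. Among the 14 were the secreted carriers Ptgds, Bmp7 and Serping1 (adjusted p 0.031, 0.025 and 0.019 by limma). Dcn (-0.04), Aldh1a1 (-0.21), Osr1 (-0.36), Slc16a11 (-0.37) and Eya2 (-0.39) were at the small end. With the array row as a block, where 12 months again rests on WT replicate 3 alone, the change of Gjb2 alone kept an adjusted p below 0.05 (0.026 by limma, against 0.0455% of all genes with a negative change at that threshold), and with the replicate number as a block 5 did. This comparison is also one between males and females and between slides. The choroid plexus list had a median change of -0.10 with 0 of 14 passing, and the collagens and other fibroblast markers one of -1.38 with 4 of 12 passing.

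**Figure D4:**
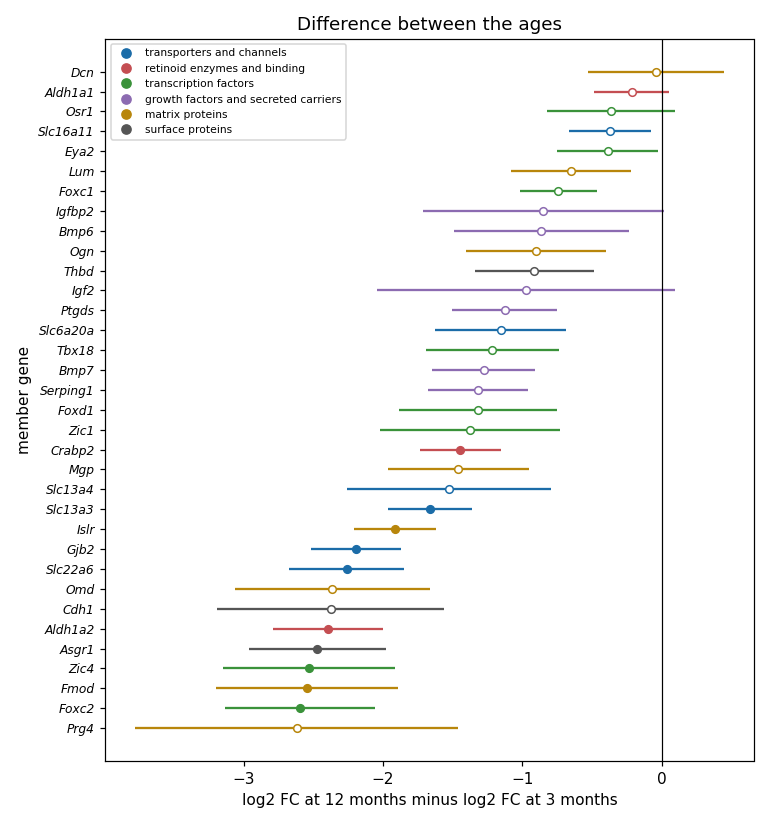
Log2 FC at 12 months minus log2 FC at 3 months (horizontal axis) for the 34 member genes tested at both ages (vertical axis, coloured by role); bars are standard errors and filled points have a Benjamini-Hochberg adjusted p below 0.05. All 34 points lie left of 0, from -2.62 for Prg4 to -0.04 for Dcn, and 10 are filled.

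From 1 to 3 months the change was positive in 34 of 36 members and passed an adjusted p of 0.05 in 2 (5.56%, against 0.0382% of all genes with a positive change at that threshold). They were Prg4, with 4.14 (SE 0.97, adjusted p 0.038 by limma), and Slc22a2, with 2.07 (SE 0.41, adjusted p 0.014). The levels of Prg4 crossed, since the WT mean was -2.99 at 1 month and -4.70 at 3 months while the TgproNGF#3 mean was -5.23 and -2.80. Slc22a2 showed the same crossing, with WT means of -4.43 and -5.93 and TgproNGF#3 means of -5.47 and -4.90. These levels come from separate slides. The adjusted p of Prg4 passed 0.05 in 5 of 16 fits that left out 1 mouse, and that of Slc22a2 in 16 of 16.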

How the data were processed

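Hippocampal RNA of each mouse was hybridised to 1 one-colour Agilent whole-genome array. Per the file headers, the deposited intensity values are processed signals from Agilent Feature Extraction 10.7.3.1, background-subtracted and spatially detrended, on a linear scale. The authors' own log2 value table, from which they had removed features not well above background and which they aligned to the 75th percentile, was used as an alternative and holds 28929 probes, 31 of them members' brightest probes. From the deposited intensity, spots not well above background, outlier spots and controls were left out, and log2 values minus the array's 75th percentile were fitted per age with limma 3.58.1 in R 4.3.3, where a probe needed at least 2 values per group. Probes were named through RefSeq accessions of GRCm38.p6, which gave 28026 of 55681 probes a gene. No spot was saturated (0 on every array), and the number of arrays limits the precision. Groups came from sample titles. Each array is 1 mouse.

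The members and gene lists were chosen with earlier results of these data known. Values per array are given for members at the ages where they were called and for Prg4, and at most 3 called genes of another list were named per age. Islr at 3 months was added after its values were seen. Other members are given by value or count. Alternatives were other treatments of dim and outlier spots, scalings, background correction, pooled fits, blocks for replicate number and array row, all probes of a gene, and leaving out each mouse. Same-numbered mice deviated together at 1 month (correlations over probes of 0.51, 0.27, 0.19 and 0.21) but not at 3 months (-0.36 to -0.02) or 12 months (-0.32 to 0.05), so the replicate number was read as a pair only at 1 month, where it follows the slide row. The fits were tested on simulated data. Results for some genes, including the check of the transgene, are not reported here.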

Additional observations from a re-analysis of the deposited data

Results flagged for a closer look

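The difference between TgproNGF#3 and WT was not the same at 3 and 12 months for 10 members, by a test of the change itself (limma, Benjamini-Hochberg adjusted p below 0.05). The change in log2 FC was -2.19 for Gjb2, -1.91 for Islr, -2.40 for Aldh1a2, -1.66 for Slc13a3, -2.26 for Slc22a6, -2.47 for Asgr1, -1.44 for Crabp2, -2.60 for Foxc2, -2.53 for Zic4 and -2.54 for Fmod. Gjb2, Islr, Aldh1a2, Slc13a3, Slc22a6, Asgr1 and Crabp2 passed in each of the 14 fits that left out 1 mouse, Foxc2 in 13, Zic4 in 6 and Fmod in 5. With the array row as a block only Gjb2 of the 10 passed, and with the mean of both probes Asgr1 had -0.47 and did not pass. Between 1 and 3 months it differed for Slc22a2, with 2.07, and for Prg4, with 4.14. In 52 groups of 4 arrays (scores of the members and of their roles, and levels of the genes described), 0 held an array far from the other 3, where chance gives about 1 in 20.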

How the results depend on the processing

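At 12 months 12 members were called, and 8 to 13 under the alternatives other than the adjusted threshold, at which 0 were called. Leaving out 1 mouse gave 9 to 13. Of all genes 0.854% were called lower in the main fit, 0.491% with quantile normalization (10 members) and 1.49% with dim spots kept (13 members). The fits that left out 1 mouse ran from 0.433% without WT replicate 2 (9 members) to 1.84% without WT replicate 3 (13 members). The median of the members stayed negative at 1 and 12 months and positive at 3 months under every alternative run. At 1 month, leaving out TgproNGF#3 replicate 2 gave -0.54 and leaving out replicate 1 gave -0.14. Scaling to the median of the spots moved the median of all genes at 12 months from 0.06 to 0.21 and that of the members from -0.84 to -0.69. Scaling to the 75th percentile of all spots moved them at 3 months from -0.05 to 0.07 and from 0.42 to 0.52.

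At 1 month, where 2 were called, the replicate block gave 4, as did only probes well above background on every array. Of all genes 0.406% and 0.136% were called lower in these settings, against 0.168% in the main fit. Scaling to the median, normexp or the authors' log2 table gave 1, with 0.186%, 0.0812% and 0.103% of all genes called lower. The adjusted threshold gave 0, and leaving out 1 mouse gave 1 to 7. At 3 months, where 3 were called, the count was 7 with the 75th percentile of all spots, 6 with quantile normalization and 1 with normexp. There 1.27%, 1.03% and 0.26% of all genes were called higher, against 0.775% in the main fit. Leaving out 1 mouse gave 1 to 8 at 3 months. For the change from 3 to 12 months, where 10 passed, 5 passed with the replicate block and 1 with the array row as a block, while other settings gave 7 (mean of all probes of a gene) to 14 (75th percentile of all spots). For the change from 1 to 3 months, where 2 passed, 1 passed with dim spots kept, normexp or the array row as a block, 0 with quantile normalization or the authors' table, and leaving out 1 mouse gave 1 to 4. At 3 and 12 months the labels do not say that the replicate number marks a shared litter or day and same-numbered mice did not deviate together, so there the mice share only a number. The replicate block took 12 calls at 12 months to 10 and 3 at 3 months to 2.

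For the 29 values of called genes, no direction reversed in 404 comparisons with other settings or in 280 that left out 1 mouse. Of the 404, 51 no longer passed the threshold and 5, values with no test, moved by more than the spread between replicates, and of the 280, 54 no longer passed. The causes were not tested.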

Other observations

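At 12 months the insulin-like growth factor list had 0 of 9 tested genes called and 1 with an unadjusted p below 0.05 in limma, with a median log2 FC of 0.02. The small leucine-rich proteoglycans outside the members had 0 of 6 called, 1 with an unadjusted p below 0.05 and a median of -0.21, and the BMP list had 0 of 22 called, 3 with an unadjusted p below 0.05 and a median of 0.06. At 3 months the endothelial list held 1 called gene, Cdh5, VE-cadherin, with a log2 FC of -2.07 (SE 0.38, adjusted p 0.013 by limma), while the list's median was 0.08. At 1 month the 12 other fibroblast markers had a median of -0.05 and 1 called gene, Col6a3, higher by 1.02 (SE 0.39).

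Astrocyte, oligodendrocyte and microglia lists of 6 genes each had 0 called genes at any of the 3 ages. The numbers with an unadjusted p below 0.05 were 0, 1 and 1 for astrocytes, 0, 4 and 0 for oligodendrocytes and 0, 1 and 0 for microglia at 1, 3 and 12 months. At 3 months 3917 of all 15739 genes tested had an unadjusted p below 0.05 in limma. The oligodendrocyte list at 3 months had 4 genes higher and 2 lower in TgproNGF#3, with a median log2 FC of 0.33. The hippocampal neuron list had 0 called genes of 12 at each age, with 0, 2 and 0 at an unadjusted p below 0.05 and medians of 0.13, -0.13 and 0.09.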
